A study of Mus musculus with 2 samples.

Results

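Dendritic cells were a rare population among the CD45+ cells of the mouse brain, and 96 of 19864 deposited cells passed the rule that defines them here. The rule selected cells on measured values: at least 500 unique molecular identifiers (UMIs, which count captured RNA molecules) on genes, at least 2 UMIs in sum of Cd209a, Flt3, Xcr1, Clec9a and Zbtb46, and at least 10 UMIs in sum of the MHC class II genes H2-Aa, H2-Ab1 and H2-Eb1. It also asked for at most 2 UMIs of Mrc1 and Pf4, at most 2 of Cd79a and Cd79b, and at most 1 of Cd3d, Cd3e and Cd3g, which mark macrophages at the brain's borders, B cells and T cells. Levels of these genes in the selected cells therefore describe the selection and are given without a test.

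The cells came from 4 control and 4 Arpc4ΔCx3cr1 mice, all 12 weeks old. Both groups carried floxed Arpc4 on both chromosomes (Arpc4fl/fl) on a C57BL/6J background, and the Arpc4ΔCx3cr1 mice also carried Tg(Cx3cr1-Cre), in which the promoter of the fractalkine receptor gene Cx3cr1 drives the recombinase. This driver is active in microglia and other brain myeloid cells, so it is specific neither to microglia nor to dendritic cells. The cells of each mouse were sorted as viable CD45+ cells, tagged with an oligonucleotide of their own and pooled in equal numbers into 1 library of 3′ ends of transcripts. Of the Arpc4ΔCx3cr1 mice, 3 were male and 1 was female. The labels do not say which, but the Xist levels given below mark mouse 1 as the female. All 8 mice were used here. All 4 control mice were male. The study left the female out of its own analysis.

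Dendritic cells take up material, load its peptides on MHC class II and present them to T cells. In the steady state brain they lie mainly in the meninges and the choroid plexus. Conventional dendritic cells arise from a precursor that depends on the receptor Flt3 and fall into a type 1 (cDC1), which needs Irf8 and Batf3 and bears Xcr1 and Clec9a, and a type 2 (cDC2), which needs Irf4 and bears lectins such as Cd209a, Clec10a and Mgl2. Arpc4 encodes a subunit of the Arp2/3 complex, which nucleates branched actin filaments and so shapes the lamellipodia and dendrites with which these cells probe their surroundings.

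The number of dendritic cells per mouse was 15, 18, 22 and 9 in control mice 1 to 4 and 14, 2, 11 and 5 in Arpc4ΔCx3cr1 mice 1 to 4. Their summed depth per mouse ran from 29708 to 190633 UMIs, and the median cell held 8663.5 UMIs against 3960 in cells of the microglia gate, defined by C1qa, C1qb, C1qc and other microglial genes. No barcode occurred in more than 1 mouse (0 of 19864). Arpc4ΔCx3cr1 mouse 1 stood apart in 2 measures taken over all of its cells. Xist, the RNA of the inactive X chromosome of females, was at 1276 CPM (UMIs of the gene per 1000000 UMIs of all genes) in that mouse and at 4.30 to 13.6 CPM in the other 7, and its tags took 59.3% of its UMIs against 17.9 to 38.0%. By this Xist level it was the female that the study left out. It was also 1 of the 2 Arpc4ΔCx3cr1 mice with at least 10 dendritic cells, which the main tests between genotypes rest on, while all control mice were male. The part of sex in the differences between genotypes was not tested. The share of dendritic cells, the cDC1 share and the genes called are given with and without it.

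The label was checked against marker genes. The 10 pan dendritic markers, of which the rule used Flt3 and Zbtb46, were all detected. Napsa and Plbd1, which it did not use, were each found in 93.8% of the cells. Empty droplets, a measure of free RNA, held them at 26.6 and 12.4 CPM. Itgax and Ifi205, which the rule did not use either, had no UMI in most of the cells. Cst3 was found in 99.0%, but empty droplets held it at 49422 CPM, so its presence says little about the label. The whole list summed to 14102 to 26188 CPM in dendritic cells and to 15592 to 51254 CPM in the microglia gate. No gene of the T cell list was detected (6 of 6 at 0, among them the 3 that the rule limits), 4 of 6 natural killer cell genes were at 0 and 4 of 7 B cell genes, one of which, Cd79a, the rule limits. Among the 8 genes of border macrophages 3 that the rule did not use, Lyve1, Cbr2 and Folr2, were at 0 in all mice. The lists of B cells and border macrophages also hold Cd79b, Mrc1 and Pf4, whose low levels the rule fixes, so their sums describe the selection. In each mouse the summed level of the border macrophage list stayed between 31.1 and 301 CPM, against 6054 to 11053 CPM in the gate of those macrophages (CAM gate). The monocyte list was not at 0. It summed to 101 to 2724 CPM in dendritic cells, and its members Ccr2, S100a4 and Ms4a4c were present in 81.2%, 75% and 61.5% of the dendritic cells. Of the same list, Plac8 had at least 3 UMIs in 30 of the 96 cells, and Ly6c2 and Chil3 were present in 9.38% and 2.08%. A gate on Ly6c2, Plac8, Chil3 and Ccr2, meant for monocytes, could not serve as their reference. Its cells held the granulocyte list at a median of 119479 CPM over the 8 mice and the monocyte list at 6822 CPM, so it is named here by its genes (Ly6c2/Ccr2 gate). In dendritic cells the granulocyte list stayed between 42.0 and 168 CPM.

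The 15 leading genes outside the rule, ranked by the mean difference from all other cells over the 5 mice with at least 10 dendritic cells, were Cd74, Plbd1, Crip1, Vim, S100a4, Napsa, Klrd1, Ccr2, Olfm1, Fxyd5, Ahnak, S100a6, S100a11, Lgals3 and Anxa2, and each was higher in 5 of 5 mice. This ranking describes the cells and is no test. Cd74, the invariant chain that chaperones MHC class II, was at 28613 CPM (range over the 5 mice 21270 to 33364) against 848 CPM in the other cells. Plbd1, a phospholipase B-like gene, was at 591 CPM against 15.8 CPM, and Napsa, an aspartic protease of the endosome, at 547 CPM against 24.96 CPM. Klrd1, which encodes the receptor subunit CD94 better known from natural killer cells, was at 441 CPM and at 48.2 CPM or less in the other gates compared. Natural killer cells and T cells were not among those gates. Ccr2, the chemokine receptor that brings bone marrow-derived cells into tissue, was at 485 CPM against 181 CPM in the Ly6c2/Ccr2 gate. A few of the leading genes were as high in that gate, which is rich in granulocyte genes. S100a6, S100a11 and Anxa2 reached 2482, 1566 and 506 CPM in it and 1752, 1158 and 427 CPM in dendritic cells.

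**Figure D1:**
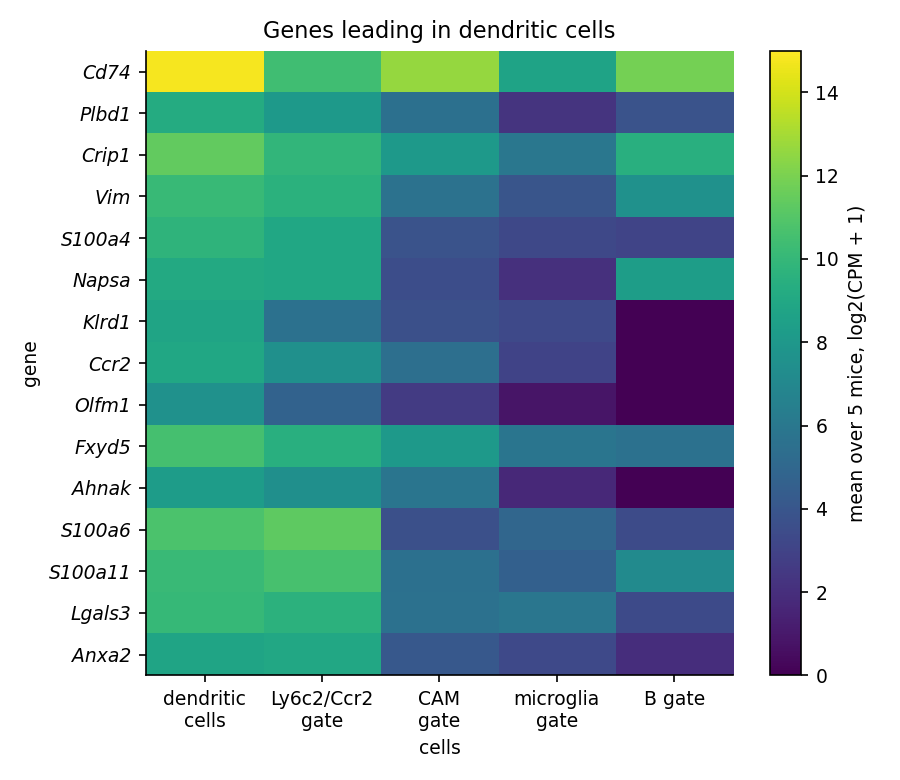
Heat map of the 15 leading genes outside the rule (rows) in dendritic cells and 4 comparison gates (columns), coloured by the mean over the same 5 mice on a log2(CPM + 1) scale. Cd74 at 28613 CPM stands above every other value, and S100a6, S100a11 and Anxa2 are the genes whose Ly6c2/Ccr2 column is at least as high as that of dendritic cells.

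The rule left little in doubt at its MHC class II limit and more at its dendritic limit. The summed MHC class II count of the members ran from 10 to 870 UMIs with a median of 212, and 3 members had 20 or fewer. Of cells that failed on MHC class II alone there were 121, with a median of 0 UMIs, and only 1 of them had 5 to 9. At the limit of the 5 dendritic genes, 10 members had exactly 2 UMIs (median MHC class II count 95, median count of C1qa, C1qb and C1qc 5), and 23 cells with 1 UMI lay just outside (medians 91 and 44). A further 14 cells were left out by the genes of other lineages, 13 of them by the macrophage genes.

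Most members were Cd209a-bearing cells and a minority were Xcr1- and Clec9a-bearing. At least 2 UMIs of Cd209a, a C-type lectin of cDC2 and monocyte-derived cells, were present in 63 members, at least 2 UMIs of Xcr1 and Clec9a in sum in 18, both in 1 and neither in 16. Xcr1 encodes the receptor for the chemokine Xcl1, and Clec9a a receptor for actin filaments exposed by dead cells. With a limit of 1 UMI, Cd209a was found in 68.8% of the members, Flt3 in 56.2%, Zbtb46 in 35.4%, Clec9a in 24.0% and Xcr1 in 16.7%, against 0.0728%, 0.812%, 3.89%, 0.146% and 0.106% of cells in the microglia gate, at median depths of 8663.5 and 3960 UMIs. All of these are genes of the rule, so this contrast describes the selection. Of the 16 cells with neither, 12 had Flt3.

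**Figure D2:**
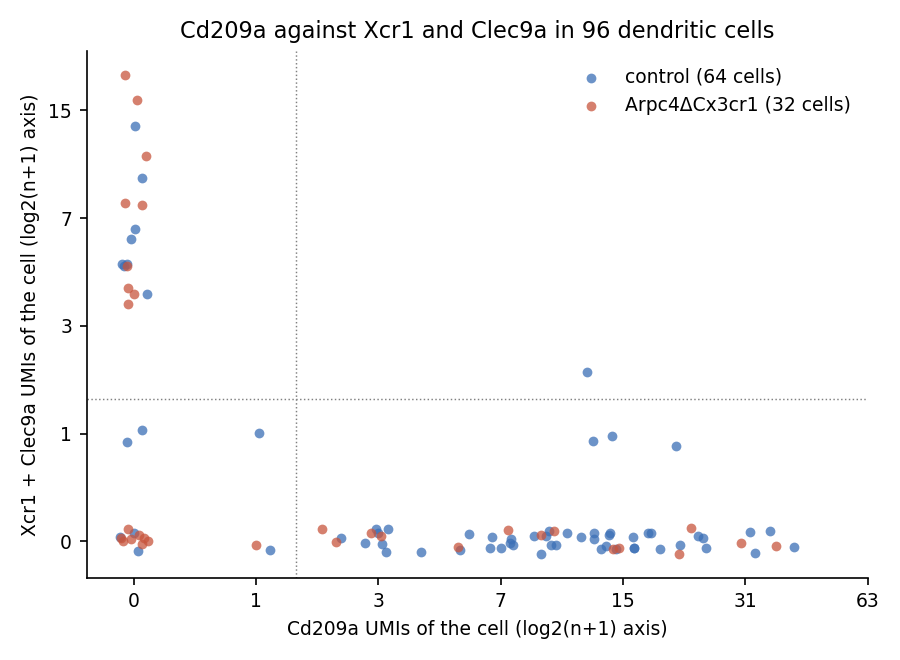
Each point is 1 of the 96 dendritic cells, placed by its Cd209a UMIs (horizontal) and its summed Xcr1 and Clec9a UMIs (vertical), on log2(n + 1) axes with a small random offset, coloured by genotype. Dotted lines mark the limit of 2 UMIs, and 1 cell lies past both.

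The genes that separated these sets, given as a description, included some known for the 2 types of dendritic cell and others that are not. The 18 cDC1-gate cells were led, beside the genes that chose them, by genes such as Clnk (39 UMIs in 9 of 18 cells, 0 in the others), Cd36, Zfp366, Ppt1, Gm36723, P2ry14 and Gcsam. Ppt1, a lysosomal thioesterase, was at 880 CPM in them and at 77.9 CPM in the other members. The remaining 78 members included the 16 cells with neither. These 78 were led by Mgl2, S100a4 (a gene of the monocyte list), Cd209a, Clec10a, Mcemp1, Dab2, Capg, Ms4a6d, Zeb2 and Csmd3. Mgl2 was at 591 CPM there and at 4.33 CPM in the cDC1 gate, S100a4 at 1160 and 21.7 CPM, and Zeb2, a transcription factor of cDC2 and macrophages, at 410 and 34.7 CPM. Of the Csmd3 UMIs, 170 lay in the cells rich in C1q that are described next.

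Some of the members also carried transcripts of microglia. The complement genes C1qa, C1qb and C1qc, among the most abundant of microglia, summed to 10 or more UMIs in 24 members and to fewer in 72. The 24 cells numbered 3, 4, 6 and 2 in control mice 1 to 4 and 3, 2, 3 and 1 in Arpc4ΔCx3cr1 mice 1 to 4. Their median depth was 9930 UMIs and 3124 genes, against 8513.5 UMIs and 2237 genes in the 72, and their median MHC class II count was 189.5 against 219.5 UMIs. Their leading genes were Tanc2, Nav3, Mir99ahg, Plxdc2, Csmd3, Mertk and C1qa, with C1qa at 3373 CPM against 127 CPM in the other members. Both cells of Arpc4ΔCx3cr1 mouse 2 were among them. No doublet caller was run, and whether these cells were 2 cells in 1 droplet was not tested. The share of all cells and the genes called between genotypes are therefore also given without them.

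Cells with genes of migratory dendritic cells were scarce, and genes of other states are given beside them. Of the 96 members, 2 had at least 2 UMIs in sum of Ccr7, Fscn1 and Ccl22, the genes of migratory dendritic cells, and 1 cell had Ccr7 at all. Of the 10 genes of the plasmacytoid list, Ly6d and Klk1 were at 0 in all mice and the others were detected. The list summed to 391 to 1077 CPM in dendritic cells, against 1603 to 2220 CPM in the microglia gate. Siglech and Bst2, 2 genes of that list which microglia also express, were present in 32.3% and 86.5% of the members against 86.8% and 65.4% of the microglia gate. The proliferation genes Mki67, Top2a, Stmn1, Birc5, Cdk1 and Ube2c summed to at least 3 UMIs in 12 members, 7 of control and 5 of Arpc4ΔCx3cr1 mice, 3 of them in the cDC1 gate. Of the costimulatory genes, Cd86 was found in 46.9% of the members, fewer than the 68.0% of the microglia gate, and Cd40, Cd80 and Cd274 in 6.25%, 9.38% and 5.21%. These shares rest on the depth of each cell, and the members were deeper than the microglia-gate cells.

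The first comparison between genotypes asked whether dendritic cells took a different share of the CD45+ cells. They made up 1.19%, 0.636%, 0.813% and 0.340% of the cells of control mice 1 to 4 and 0.532%, 0.0786%, 0.407% and 0.197% of those of Arpc4ΔCx3cr1 mice 1 to 4. Control mouse 1 had the highest and Arpc4ΔCx3cr1 mouse 2 the lowest value, and the groups overlapped, since control mouse 4 lay below Arpc4ΔCx3cr1 mice 1 and 3. The mean was 0.746% ± 0.357 (SD, n = 4) in control and 0.304% ± 0.204 (SD, n = 4) in Arpc4ΔCx3cr1 mice, a difference of -0.442 percentage points (-0.358 without the members rich in C1q, -0.518 without Arpc4ΔCx3cr1 mouse 1) that did not pass an exact two-sided permutation test over mice (p = 0.0857, the smallest possible p being 0.0286). For a single mouse the exact 95% binomial interval, which covers counting error only, was widest at 0.669 to 1.96% (control mouse 1, 15 cells). It was 0.0639 to 0.458% for Arpc4ΔCx3cr1 mouse 4 (5 cells).

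The share depends on what it is taken of. The microglia gate held 8455 of 9443 cells of control and 9403 of 10421 of Arpc4ΔCx3cr1 mice. The study counted more microglia in the cortex of Arpc4ΔCx3cr1 mice. Fewer dendritic cells and more microglia cannot be told apart in the share of all cells. Among dendritic cells and the cells of the T and B gates together, dendritic cells took 33.3%, 26.1%, 32.8% and 25% in control mice 1 to 4 and 20.9%, 10.0%, 15.3% and 12.2% in Arpc4ΔCx3cr1 mice 1 to 4. All 4 Arpc4ΔCx3cr1 mice lay below all 4 control mice, and the means of 29.3% ± 4.38 and 14.6% ± 4.73 (SD, n = 4 each) differed with p = 0.0286 in the exact permutation test, the smallest it can give. The other cells of this denominator moved as well: the T gate held 86 cells in control and 127 in Arpc4ΔCx3cr1 mice, the B gate 67 and 41. Fewer dendritic cells and more T cells cannot be told apart in this ratio. Cells with microglial transcripts were also in this denominator: 40 of 86 and 49 of 127 T-gate cells and 25 of 67 and 15 of 41 B-gate cells of control and Arpc4ΔCx3cr1 mice had at least 10 C1q UMIs. With such cells left out of all 3 sets, an alternative chosen after seeing the data, the shares were 34.3%, 36.8%, 38.1% and 31.8% in control mice 1 to 4 and 23.4%, 0%, 17.0% and 15.4% in Arpc4ΔCx3cr1 mice 1 to 4, again without overlap (exact permutation p = 0.0286). The 0% of mouse 2 was 0 of 7 cells, which allows a share of up to 42.9%. After every cell was thinned to 2000 UMIs, leaving out 1202 control and 813 Arpc4ΔCx3cr1 cells that were shallower, the shares of all cells were 0.616% ± 0.288 and 0.152% ± 0.138 (SD, n = 4 each) with an exact permutation p of 0.0571.

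**Figure D3:**
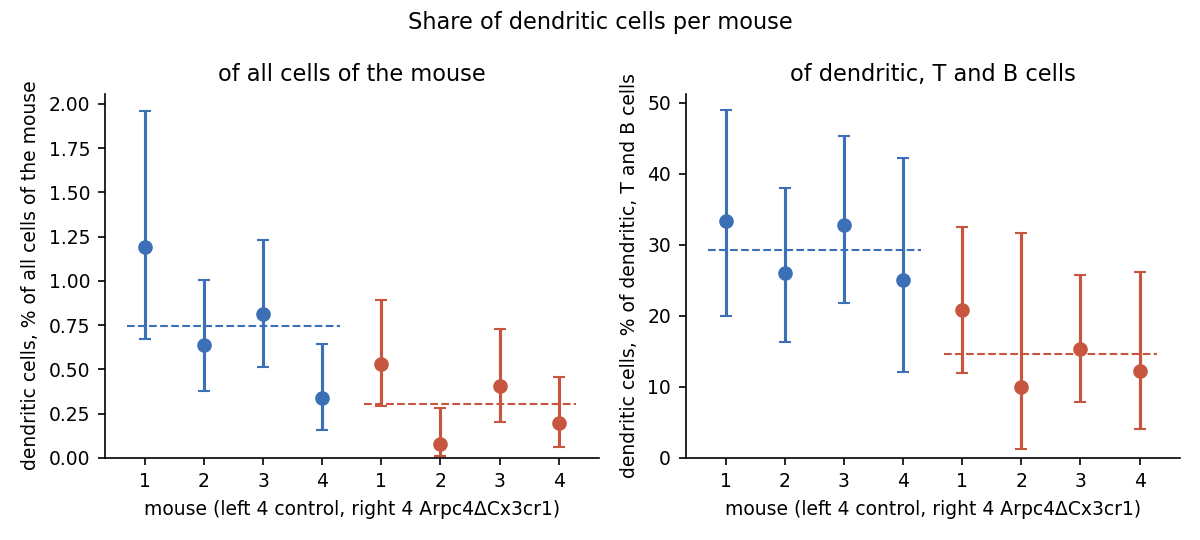
Dendritic cells per mouse as a percentage of all cells (left panel) and of dendritic, T and B cells (right panel), for 4 control mice (blue) and 4 Arpc4ΔCx3cr1 mice (red). Bars are exact 95% binomial intervals and dashed lines group means, at 0.746% and 0.304% on the left and 29.3% and 14.6% on the right, where the 2 groups do not overlap.

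The make-up of the population was compared in the 5 mice with at least 10 members. The cDC1 gate held 2 of 15, 3 of 18 and 2 of 22 members in control mice 1 to 3, and 6 of 14 and 1 of 11 in Arpc4ΔCx3cr1 mice 1 and 3. Arpc4ΔCx3cr1 mouse 1 was the highest at 42.9%, and mouse 3 equalled the lowest control mouse at 9.09%. The means of 13.03% ± 3.797 (SD, n = 3) and 26.0% ± 23.9 (SD, n = 2) did not pass the exact permutation test (p = 0.8, smallest possible p 0.2), and without Arpc4ΔCx3cr1 mouse 1 the difference turned to -3.94 percentage points. The cells with at least 2 UMIs of Cd209a and outside the cDC1 gate numbered 12, 13, 17 and 6 in control mice 1 to 4 and 3, 0, 9 and 2 in Arpc4ΔCx3cr1 mice 1 to 4, so that Arpc4ΔCx3cr1 mouse 1 alone had fewer of them than of the cDC1 gate among the 5 mice. The migratory set held 1 of 80 members in these mice, in control mouse 3, and gave means of 1.52% ± 2.62 (SD, n = 3) and 0% (n = 2), where a count of 0 still allows up to 27.3% in the 11 cells of mouse 3 (exact permutation p = 1).

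Arpc4 itself was not detectably lower in the dendritic cells of Arpc4ΔCx3cr1 mice. The gene (chromosome 6, 113378115 to 113390448 of mm10, plus strand, overlapped by 1 other annotated gene on that strand) was at 183, 270, 236 and 279 CPM in the dendritic cells of control mice 1 to 4 and at 261, 269, 224 and 179 CPM in those of Arpc4ΔCx3cr1 mice 1 to 4. The groups overlapped throughout, with 138 UMIs in control and 84 in Arpc4ΔCx3cr1 members in all. In the microglia gate of the same mice it was at 240, 221, 231 and 231 CPM in controls and at 148, 145, 137 and 132 CPM in Arpc4ΔCx3cr1 mice, with no overlap. In the 5 mice with at least 10 members, the log2 fold change was 0.05 (SE 0.30, edgeR adjusted p = 0.999) in dendritic cells and -0.59 (SE 0.08, edgeR adjusted p = 0.00185) in the microglia gate. The difference between these changes was 0.59 (SE 0.39) and did not pass the test of the interaction between gate and genotype (edgeR adjusted p = 0.817). Which exons are deleted is not given in the sources used here, and 3′ reads need not come from them, so this level checks the deletion only in part. Empty droplets of the pool held Arpc4 at 229 CPM, and the part of free RNA in its levels was not tested.

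Transcripts of the gene whose promoter drives the recombinase were found in dendritic cells at a lower level than in microglia. Cx3cr1 was present in 69.8% of the members and was at 549, 602, 451 and 301 CPM in control mice 1 to 4, against a mean of 3668 CPM ± 47.8 (SD, n = 4) in their microglia gate. In Arpc4ΔCx3cr1 mice 1 to 4 it was at 323, 1212, 365 and 358 CPM, and the high value was that of mouse 2, whose 2 members both carried microglial transcripts. Empty droplets of the pool held Cx3cr1 at 1724 CPM, above its level in the members of every mouse. The part of free RNA in these levels was not tested.

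None of the 9 Arp2/3 subunit genes passed the test in dendritic cells (edgeR, 0 of 9, also 0 at an unadjusted p under 0.05 and 0 with DESeq2). Their median log2 fold change was 0.05, beside 0.02 over all 2512 genes tested. The subunits with the highest counts, Arpc2, Arpc1b and Arpc3, were at 1012 CPM ± 78.3, 832 ± 32.7 and 712 ± 86.3 in control mice and at 928 ± 60.9, 842 ± 225 and 713 ± 193 in Arpc4ΔCx3cr1 mice (SD, n = 4 each). Arpc5l had the lowest fitted change at -0.77 (SE 0.35, edgeR adjusted p = 0.892) and Actr2, the actin-related subunit ARP2, the highest at 0.59 (SE 0.30, edgeR adjusted p = 0.903). Among the actin regulators, 0 of 19 tested genes passed (1 at an unadjusted p under 0.05), with a median of 0.01, and Tmsb4x, Actb and Actg1 had log2 fold changes of -0.12, -0.05 and -0.22.

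Across all genes, 2 of 2512 passed an adjusted p of 0.05 between genotypes in dendritic cells (0.0796%; edgeR, 3 control against 2 Arpc4ΔCx3cr1 mice), Ifitm1 higher and Mgl2 lower in Arpc4ΔCx3cr1 mice. At an unadjusted p under 0.05 there were 138 genes, and DESeq2 called 3, with Ifitm2 as the third. Genes were changed by known folds in simulated counts of this comparison (2231 genes tested). Of those changed by 1 on the log2 scale 31.1% were called, and of those changed by 2 85.4%. Many genes were changed together there, by up to 6 on that scale, which made the adjusted threshold looser than in the data. These shares are thus too high for the real comparison, and a change of 1 would mostly be missed in these 5 mice.

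Mgl2, which encodes the galactose-binding lectin CD301b of a subset of cDC2 (chromosome 11, 70130329 to 70137550 of mm10, plus strand), had 111, 115, 125 and 58 UMIs in the dendritic cells of control mice 1 to 4 and 1, 0, 8 and 0 in those of Arpc4ΔCx3cr1 mice 1 to 4. In CPM these were 701, 795, 656 and 647 against 6.22, 0, 74.8 and 0. Every control mouse lay far above every Arpc4ΔCx3cr1 mouse. The log2 fold change was -4.35 (SE 0.58, edgeR adjusted p = 0.0155) in the 5 mice with at least 10 members and -4.76 (SE 0.58, edgeR adjusted p = 0.00371) with all 8 mice.

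The same counts are given within the Cd209a-bearing cells, as a description. Of members with at least 2 UMIs of Cd209a, 7 of 12, 11 of 13, 13 of 18 and 4 of 6 had a UMI of Mgl2 in control mice 1 to 4, which is 58.3%, 84.6%, 72.2% and 66.7%. In Arpc4ΔCx3cr1 mice it was 0 of 3 in mouse 1, 3 of 9 (33.3%) in mouse 3 and 0 of 2 in mouse 4, and mouse 2 had no such cell. In all, 35 of 49 such cells of control mice held all 409 UMIs, and 3 of 14 of Arpc4ΔCx3cr1 mice held 8, at median depths of 7663 and 7543 UMIs. In the microglia gate, where the gene should be absent, 0.174% of the cells had a UMI.

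Related genes and cells are given beside it. Clec10a, its neighbour in the same lectin family and another marker of cDC2, was at 164, 297, 99.7 and 413 CPM in control mice 1 to 4 and at 80.8, 0, 393 and 108 CPM in Arpc4ΔCx3cr1 mice 1 to 4, with a log2 fold change of 0.30 (SE 0.62, edgeR adjusted p = 0.999). Cd209a, a gene of the rule and so a description only, was at 827, 1466, 1102 and 1038 CPM and at 80.8, 0, 1412 and 305 CPM. In the macrophages of the CAM gate, which also express Mgl2, it was at 95.3, 187, 215 and 224 CPM in control and 287, 39.5, 457 and 97.9 CPM in Arpc4ΔCx3cr1 mice, with overlap. Reads shared between Mgl2 and Clec10a, which are similar in sequence, were not examined.

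The call on Mgl2 in 5 mice did not hold in every fit. With control mouse 1, 2 or 3 left out, the log2 fold change was -4.35, -4.26 and -4.40 and the call was lost (edgeR adjusted p = 0.0970, 0.132 and 0.126). With all 8 mice the call held in each of the 8 fits that left 1 out (log2 -7.23 to -4.18, edgeR adjusted p 6.17e-06 to 0.0357). In the 5 mice it also held without Arpc4ΔCx3cr1 mouse 1, where the log2 fold change was -3.17 (edgeR adjusted p = 9.2e-06, with the lone remaining Arpc4ΔCx3cr1 mouse assumed to vary like the others), and without the members rich in C1q (-4.44, edgeR adjusted p = 0.00329).

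Ifitm1, an interferon-induced transmembrane protein gene (chromosome 7, 140967221 to 140969825 of mm10, plus strand), had 1, 0, 0 and 4 UMIs in control mice 1 to 4 and 211, 0, 42 and 7 UMIs in Arpc4ΔCx3cr1 mice 1 to 4. Arpc4ΔCx3cr1 mouse 1 was by far the highest, and mouse 2 had none, like control mice 2 and 3. In the 5 mice of the fit the groups did not overlap, with 253 UMIs against 1, a ratio of levels of 466 (exact 95% interval 82.9 to 18492, counting error only). The fitted log2 fold change was 8.17 (SE 0.74, edgeR adjusted p = 0.000829), a size that depends on the near absence of counts in controls. Over all 8 mice the ratio was 85.8 (interval 36.3 to 267), and the gene did not enter the fit. With 1 of the 8 mice left out it entered 5 fits and passed in 1, without Arpc4ΔCx3cr1 mouse 2 (5.97, edgeR adjusted p = 0.00679), while without control mouse 1, 2, 3 or 4 the adjusted p was 0.874, 0.870, 1.00 and 0.0829. In the 5 mice it passed without Arpc4ΔCx3cr1 mouse 1 (7.18, edgeR adjusted p = 8.29e-09, with 1 Arpc4ΔCx3cr1 mouse left) and without the members rich in C1q (9.42, edgeR adjusted p = 0.00116).

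A few cells held most of this signal. Of the 260 UMIs in Arpc4ΔCx3cr1 mice, 224 came from 3 cells with 114, 71 and 39 UMIs, and 13 of 32 members had any, against 2 of 64 in control mice. The Ly6c2/Ccr2 gate was high in the same mouse, with 3412 CPM in Arpc4ΔCx3cr1 mouse 1 and 1022, 23.3 and 0 CPM in mice 4, 3 and 2, against 0 to 85.9 CPM in controls. That gate held 103 cells in Arpc4ΔCx3cr1 mouse 1 and 6 to 42 in the other mice. Its granulocyte list was at 192821, 83.7, 16201 and 116497 CPM in Arpc4ΔCx3cr1 mice 1 to 4 and at 74521 to 230761 CPM in controls, and the part of these cells in the Ifitm1 count of dendritic cells was not tested.

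**Figure D4:**
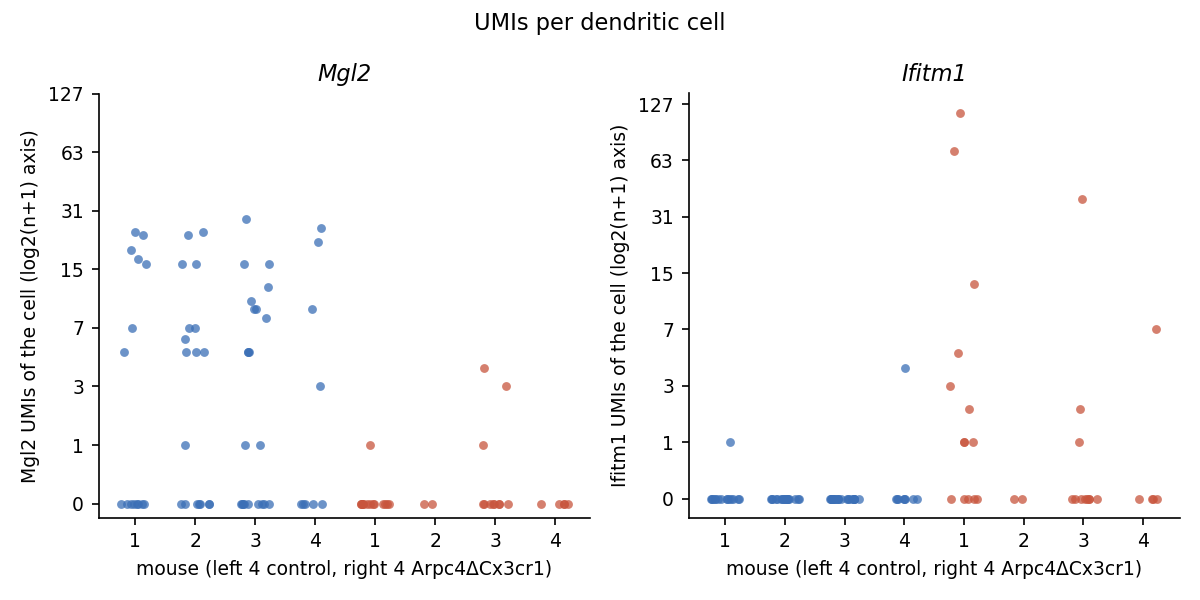
UMIs of Mgl2 (left) and Ifitm1 (right) in each of the 96 dendritic cells, on a log2(n + 1) axis, by mouse, with 4 control mice in blue and 4 Arpc4ΔCx3cr1 mice in red. Mgl2 reaches 28 UMIs in control cells and at most 4 in Arpc4ΔCx3cr1 cells, and Ifitm1 is high in 3 cells, at 114, 71 and 39 UMIs.

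The lists of dendritic cell genes gave no call between genotypes other than Mgl2. Of the antigen presentation genes, 0 of 9 for MHC class II loading (1 at an unadjusted p under 0.05) and 0 of 8 for MHC class I (0 at that level) passed in edgeR, with median log2 fold changes of -0.06 and 0.08. Of the cDC1 list, 0 of 8 tested genes passed (1 at an unadjusted p under 0.05), with a median of 0.47, and of the cDC2 list 1 of 6, which was Mgl2, with a median of -0.28. Irf8, the cDC1 factor, was at 221, 304, 294 and 346 CPM in control mice 1 to 4 and at 529, 1077, 112 and 806 CPM in Arpc4ΔCx3cr1 mice 1 to 4, and mouse 3 lay below all controls while the others lay above them. DESeq2 called no gene of these lists other than Mgl2.

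Among transcription factors of dendritic cells 0 of 7 tested genes passed, among chemokines and their receptors 0 of 5, among growth factor receptors 0 of 4 and among interferon-induced genes 0 of 3, with 0, 1, 1 and 0 of them at an unadjusted p under 0.05. The costimulation list had 1 tested gene, Cd86, with a log2 fold change of 0.24 (SE 0.37, edgeR adjusted p = 0.999). The microglia list, a measure of foreign transcripts, had a median of -0.88 over 9 tested genes, 5 of them at an unadjusted p under 0.05 and none past the adjusted threshold. Its summed level ran from 3248 to 6663 CPM in the members of control mice and from 2927 to 13464 CPM in those of Arpc4ΔCx3cr1 mice. With all 8 mice its median was -0.03, and its part in the values of other genes was not tested.

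The second comparison set the genotype difference of dendritic cells beside that of the microglia gate in the same 5 mice. In the microglia gate 3771 of 13174 genes passed (28.6%, edgeR), 2015 higher and 1756 lower in Arpc4ΔCx3cr1 mice. Of these, 1029 were tested in dendritic cells, where 0 passed in edgeR, 79 were at an unadjusted p under 0.05 and 1 passed in DESeq2. A count past a threshold in each of 2 gates does not compare them, and the gates differ in depth, so the difference was tested as an interaction with the mouse as a block. It passed for 284 of 11678 genes (2.43%), with the change lower in dendritic cells for 256 and higher for 28. That fit used a spread estimated over all genes together, and without the block 155 genes passed. Of the 256, 240 had risen in the microglia gate, and of the 28, 18 had fallen there.

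The MHC class I list, whose products present peptides from inside the cell, is given first. H2-D1, a classical MHC class I gene, was at 1547, 1418, 1574 and 1328 CPM in the dendritic cells of control mice 1 to 4 and at 1331, 1346, 1543 and 1505 CPM in those of Arpc4ΔCx3cr1 mice 1 to 4, with overlap. In the microglia gate it was at 519, 483, 549 and 541 CPM in controls and 1774, 2077, 2069 and 2219 CPM in Arpc4ΔCx3cr1 mice, without overlap. The log2 fold changes were -0.10 (SE 0.22) and 2.00 (SE 0.10), and the difference was -2.16 (SE 0.31, edgeR adjusted p = 6.96e-10). Without the mouse as a block, the edgeR adjusted p of this difference was 0.0012. B2m, H2-K1 and H2-D1 were the 3 of 8 genes of this list whose difference passed. In control mice the mean level of H2-D1 was 1467 CPM ± 115 in dendritic cells and 523 CPM ± 29.4 in the microglia gate (SD, n = 4).

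All 9 interferon-induced genes rose in the microglia gate, and for 6 of 9 the change was lower in dendritic cells by the interaction test, among them Ifit3, Isg15, Rsad2, Irf7 and Oasl2. Isg15, an interferon-induced ubiquitin-like modifier, was at 107, 249, 99.7 and 22.3 CPM in the dendritic cells of control mice 1 to 4 and at 68.4, 33.7, 178 and 753 CPM in those of Arpc4ΔCx3cr1 mice 1 to 4. Arpc4ΔCx3cr1 mouse 4 was the highest and control mouse 4 the lowest, and the groups overlapped. The log2 fold change in the 5 mice of the fit, which leaves out both of these, was -0.37 (SE 0.53) in dendritic cells and 2.84 (SE 0.35) in the microglia gate. Irf7, a transcription factor that amplifies the interferon response, had log2 fold changes of -0.44 (SE 0.67) and 2.84 (SE 0.38). Of the 9 genes, 3 were high enough to be tested in dendritic cells alone, and their median log2 fold change was -0.37 in the 5 mice and 0.42 with all 8, where 3 of 3 were positive and 0 passed (edgeR, 0 at an unadjusted p under 0.05).

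Reactive and homeostatic genes of microglia were also set side by side. Of the 13 such genes, which the study named for microglia of this genotype, some of them from these cells, and which are thus no independent evidence of direction, 8 rose and 5 fell in the microglia gate, and 0 of the 8 tested in dendritic cells passed (edgeR; 3 at an unadjusted p under 0.05). Of the 13, 6 differed between the gates in the interaction test (Axl, Apoe, Lgals3, Spp1, Lpl and Cst7), all with a lower change in dendritic cells. Apoe, the lipid carrier apolipoprotein E, was at 1099, 975, 1070 and 1808 CPM in the dendritic cells of control mice 1 to 4 and at 1287, 4544, 2001 and 2133 CPM in those of Arpc4ΔCx3cr1 mice 1 to 4, with control mouse 4 above Arpc4ΔCx3cr1 mouse 1. Its log2 fold change was 0.63 (SE 0.26, edgeR adjusted p = 0.865) against 3.93 (SE 0.37) in the microglia gate. Empty droplets of the pool held Apoe at 16539 CPM, and the part of free RNA in these levels was not tested. Lgals3, a galectin among the leading genes of dendritic cells, had log2 fold changes of -0.20 (SE 0.28) in them and 2.04 (SE 0.58) in the microglia gate.

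MHC class II loading and actin genes completed the comparison. Cd74 had log2 fold changes of -0.34 (SE 0.27) in dendritic cells and 1.87 (SE 0.26) in the microglia gate, a difference of -2.35 (SE 0.24), and with H2-Oa it was 1 of 2 genes of the 9 on that list to pass the interaction test. The level of Cd74 in dendritic cells was 30096 CPM ± 2727 in control and 18979 CPM ± 8305 in Arpc4ΔCx3cr1 mice (SD, n = 4 each), with the lowest value, 8415 CPM, in the 2 cells of mouse 2. For 0 of the 21 actin regulators did the difference between the gates pass in edgeR (1 at an unadjusted p under 0.05), although 11 of them passed in the microglia gate. Actb and Wasf2 had log2 fold changes of -0.05 (SE 0.25) and 0.30 (SE 0.30) in dendritic cells and -0.57 (SE 0.09) and -0.95 (SE 0.08) in the microglia gate. Without the mouse as a block, 155 genes passed the interaction test, 13 with a higher and 142 with a lower change in dendritic cells.

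**Figure D5:**
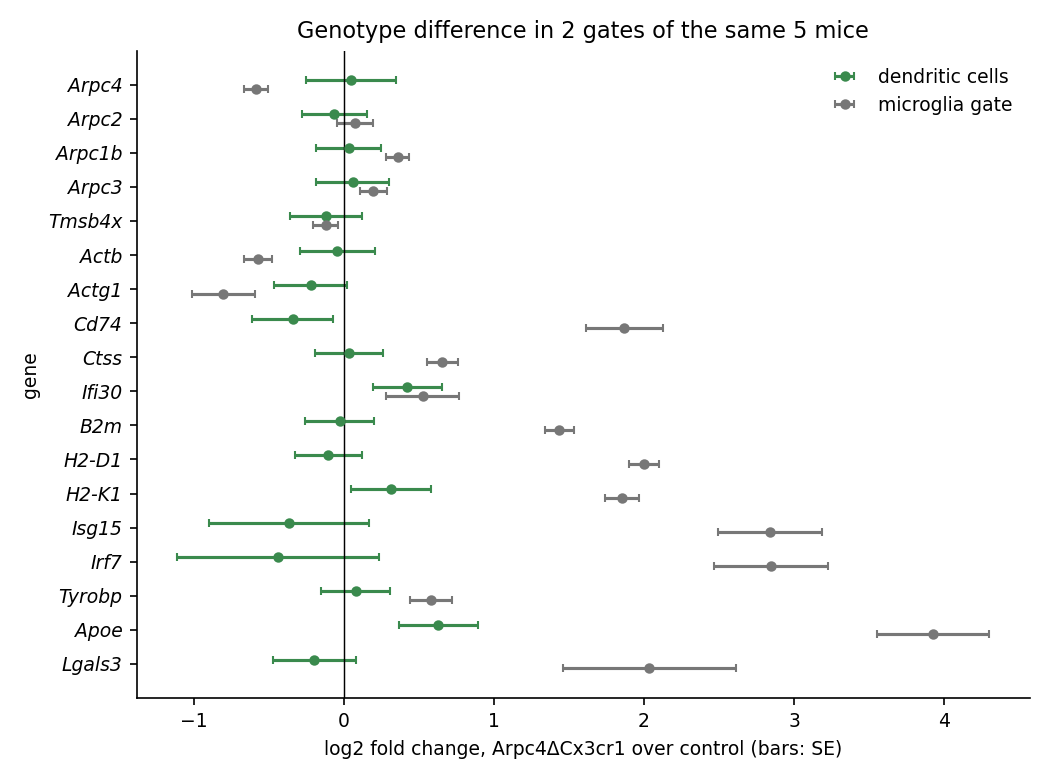
Log2 fold change between genotypes (Arpc4ΔCx3cr1 over control, horizontal axis, bars are standard errors) in dendritic cells (green) and in the microglia gate (grey) of the same 5 mice, for Arpc4 and the genes with the highest counts of each of 6 lists (2 interferon-induced genes, 3 of each other list). Arpc4 lies at 0.05 in dendritic cells and -0.59 in the microglia gate, H2-D1 at -0.10 and 2.00, and Apoe at 0.63 and 3.93.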

How the data were processed

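The raw UMI counts that the authors deposited were used as they stood: whole numbers per gene and cell for 32285 genes and 12 tags, 1 table per mouse and 1 for the pool. Per the labels Cell Ranger 6.1.2 made them, and per the file headers 7.1.0, on mm10. Only cells given to 1 mouse by its tag were deposited per mouse. The correction for free RNA that the study describes is not in these counts. No doublet caller was run, and doublets within a mouse were not removed.

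Members and lists were chosen with earlier results of these data known. UMIs of the members were summed per mouse and tested with edgeR 4.0.16 (quasi-likelihood, TMM, filterByExpr, Benjamini-Hochberg adjusted p under 0.05) in R 4.3.3, in mice with at least 10 members; DESeq2 1.42.0 was an alternative. The microglia gate was fitted alike, and the difference between gates as an interaction with the mouse as a block. Shares were compared by exact permutation over mice (70 regroupings for 4 against 4), with exact Clopper-Pearson intervals (95%) and a floor of 3 counts, in Python 3.11.15 with scipy 1.17.1. P-values refer to the mice of 1 pooled library. The interaction test with the mouse as a block used a spread estimated over all genes together. Its p-values thus do not measure each gene's own spread between mice. The tests were tried on simulated data. Named genes were the Arp2/3 subunits, all genes called between genotypes without overlap of the mice, the 15 leading genes (at least 100 CPM, prior of 10 CPM), the 10 leading genes each way of the cDC1 gate, and examples from the lists. Genes added outside that rule, chosen after their values were seen, were Cx3cr1, Irf8, Wasf2, the C1q-rich cells' leading genes and Ifitm2. Positions come from GENCODE vM21 (32158 IDs matched). Mx1 and Clec7a were not analysed here, and some listed genes are not reported here. Alternatives were another normalization, no filter, other limits of the rule, all 8 mice, each mouse left out and the mouse number as a block; 6 were added after seeing the data.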

Additional observations from a re-analysis of the deposited data

Results flagged for a closer look

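In 2 of 34 groups of 4 mice tested, 1 mouse lay far from the other 3. The limit used would flag about 1 in 20 groups of independent, normally distributed values. That rate does not hold here, since both flagged groups have counts near 0 and the groups share the same mice. Control mouse 4 had Ifitm1 at 44.6 CPM in its dendritic cells, from 1 cell, against 0 to 6.32 CPM in the other control mice. Arpc4ΔCx3cr1 mouse 3 had Mgl2 at 74.8 CPM against 0 to 6.22 CPM in the other Arpc4ΔCx3cr1 mice.

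The genotype difference itself differed between dendritic cells and the microglia gate for 284 genes in the edgeR interaction test. As log2 fold change in dendritic cells minus that in the microglia gate, the difference was -3.42 for Axl, -3.23 for Apoe, -2.41 for Lgals3, -4.82 for Spp1, -5.02 for Lpl, -3.20 for Cst7 and -2.35 for Cd74. For the genes called in dendritic cells it was -5.52 for Mgl2 and 6.49 for Ifitm1. That of Ifitm1 did not pass without the mouse as a block (adjusted p = 0.361) or without control mouse 3 (adjusted p = 0.0790).

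Of 7036 barcodes of the pool with at least 500 UMIs that were given to no mouse, 59 passed the rule for dendritic cells (0.839%). Their median depth was 13206 UMIs, 48 of them had at least 10 C1q UMIs, 35 had at least 2 UMIs of Cd209a and 10 lay in the cDC1 gate. They entered no comparison.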

How the results depend on the processing

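Of 217 alternatives, 177 left the direction and the side of the threshold as they were. Among dendritic, T and B cells the share differed by -14.7 percentage points and passed (exact permutation p = 0.0286), and by -21.3 without C1q-rich cells (the same p). With 1 mouse left out, the difference in the share of all cells ran from -0.577 to -0.293 percentage points, that of the cDC1 gate from -3.94 (without Arpc4ΔCx3cr1 mouse 1) to 29.8 and that of the migratory set from -2.27 to 0.

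The number of genes called in dendritic cells (2) became 38 with no filter, 1 with all 8 mice and 1 to 46 with 1 mouse left out: 1 without control mouse 1, 2 or 3, 26 without Arpc4ΔCx3cr1 mouse 1 and 46 without mouse 3, each of which leaves 1 Arpc4ΔCx3cr1 mouse. Mgl2 passed in 11 of 15 alternatives and Ifitm1 in 13 of 13, not counting the fits of all 8 mice with 1 left out, where Mgl2 passed in 8 of 8 and Ifitm1 in 1 of the 5 it entered. The interaction count (284) became 155 without the block, 247 with DESeq2 size factors, 366 with all 8 mice and 162 to 366 with 1 mouse left out (178 without control mouse 1, 162 without control mouse 3). The microglia gate count became 5873 with all 8 mice. The causes were not tested.

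Mice with the same number shared only a number (correlations of their deviations 0.0793, 0.127, 0.326 and -0.04). With that number as a replicate block, 1 gene was called in dendritic cells, Ifitm1, and 1 with all 8 mice, Mgl2; Mgl2 in 5 mice had a log2 fold change of -4.31 and an adjusted p of 0.738.

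Signs turned for Arp2/3 genes near 0 that passed nowhere (log2 fold changes). Arpc4 was at -0.0227 with no filter, -0.0925 with all 8 mice, -0.0565 with the block and all 8 mice, -0.21 and -0.31 without C1q-rich members in 5 and all mice, and -0.0791 (without control mouse 1) to 0.176 with 1 mouse left out. Arpc1a was at 0.0684 with the block. Arpc1b was at -0.0366 with no filter, -0.0066 with the block, -0.0172 with all 8 mice, -0.0533 with both, -0.0539 with at least 3 dendritic UMIs, and -0.0375 to 0.0814 with 1 mouse left out. Arpc3 was at -0.00999 with no filter, -0.0074 with the block, -0.0242 with all 8 mice, -0.0619 with both, and -0.198 to 0.279 with 1 mouse left out.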
